A study of Mus musculus with 23 samples.

Results

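Hippocampal gene expression in 3xTg-AD mice, a mouse model of Alzheimer's disease, was compared with that in wild-type mice, with both groups on vehicle. The 9 mice, 5 3xTg-AD and 4 wild type, were taken by their group labels from the 23 mice of the series, and no measured value entered the choice. The genotype in the labels of the 3xTg-AD mice includes Tg(APPSwe,tauP301L)1Lfa, a pair of human transgenes, Swedish-mutant APP and P301L tau. Their wild-type counterparts were labelled WT, and C57BL6/J was the strain given for both genotypes. Both groups were 18 months old and had received vehicle for 5 months in a study whose treated mice were given urolithin A, which gut microbes produce from ellagitannins in food. The 3xTg-AD group had 3 females (replicates 1, 2 and 3) and 2 males (replicates 4 and 5), and the wild-type group had 2 females (replicates 3 and 4) and 2 males (replicates 1 and 2). No label linked samples to each other, so each was taken as a separate mouse. The sources used here do not say whether the wild-type mice were littermates of the 3xTg-AD mice.

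As background, both transgenes of the 3xTg-AD line are driven by a Thy1.2 promoter, which is active mainly in neurons, and the line develops amyloid plaques and tau tangles with age. Neurons burn glucose through pyruvate: the pyruvate dehydrogenase complex passes pyruvate into the TCA cycle, the respiratory chain turns the cycle's electrons into ATP, and pyruvate dehydrogenase kinases switch the complex off. Around plaques, microglia take on an activated state with high Apoe and cathepsin expression, and failing protein quality control by proteasome and autophagy is a hallmark of tau disease.

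The assay was nCounter with the metabolic pathways panel, which counts colour-coded probes bound to each transcript without amplification. Values are log2 normalized counts, and a difference of 1 is a 2-fold change. A value was present for 748 genes, and 619 of them reached a normalized count of 20 in at least 4 of the 23 samples and were tested. Differences are 3xTg-AD minus wild type, given with the SE (standard error) where the result turns on it. The adjusted p-values come from limma, with Benjamini-Hochberg adjustment over the 619 genes, and a gene was called at 0.05. Total counts inferred from the spacing of low values averaged 531176 ± 36372 over the 5 3xTg-AD mice and 529602 ± 59214 over the 4 wild-type mice (mean ± SD), a difference of 1574.7 (two-sided exact permutation test, p = 0.968). A normalized count of 20 stood for 18.2 to 25.3 inferred counts in these mice. The 95% confidence interval of the difference lay within 1 log2 of 0 for 80.3% of the tested genes and within 0.5 log2 for 49.4%.

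Of the 9 mice, 3xTg-AD replicate 5, a male, stood farthest apart, and wild-type replicate 3, a female, came next. In 3xTg-AD replicate 5, 114 of 619 genes (18.4%) lay more than 1 log2 from the median of the other mice, 99 of them above it and 15 below. In wild-type replicate 3 the count was 40 (6.46%), with 38 above, and in the other mice it was 5 to 20. The genes that set 3xTg-AD replicate 5 apart were picked out after their values were seen. Adora2a, an adenosine receptor gene expressed strongly in striatal neurons, stood at 10.87 in that mouse and at 3.24 to 4.61 in the other 8. Ptpn5, the striatal-enriched tyrosine phosphatase, was at 11.82 there against 9.58 to 10.11 elsewhere, and Gad1, the GABA-synthesising enzyme, at 11.96 against 10.86 to 11.05. Ak5, a neuronal adenylate kinase, went the other way, at 8.68 against 11.15 to 11.81 in the other 8 mice. Trf, the transferrin gene, was at 14.81 and Aspa, the oligodendrocyte aspartoacylase, at 10.62. In 3xTg-AD replicate 3, Ttr, the transthyretin gene of the choroid plexus, reached 11.28, and Folr1, a folate receptor of the same tissue, 7.55. Both were higher still in wild-type replicate 3, at 12.62 and 8.83, and the other 7 mice lay at 4.95 to 7.15 for Ttr and 3.46 to 4.87 for Folr1. How far the dissected tissue differed between mice was not tested. The main counts are therefore also given without 3xTg-AD replicate 5, and for the comparison of the sexes also without both mice, a setting added after the data were seen.

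Few genes differed between the genotypes beyond the spread between mice, and the clearest was a fall of Pdk1 in 3xTg-AD mice. It was the 1 of 619 tested genes (0.162%) to pass in limma, 57 had an unadjusted p under 0.05 (34 higher, 5.49%, and 23 lower, 3.72%), and the median difference over the tested genes was 0.04. Without 3xTg-AD replicate 5, again 1 gene passed, Pdk1, and 30 genes had an unadjusted p under 0.05 (11 higher and 19 lower). Of the 34 higher genes 3xTg-AD replicate 5 was the highest mouse in 29, and of the 23 lower genes it was the lowest in 17. The groups did not overlap in 18 tested genes, 7 with every 3xTg-AD mouse above every wild-type mouse (1.13%) and 11 with every 3xTg-AD mouse below (1.78%). The plot of difference against p shows Pdk1 above the cloud of other genes.

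**Figure D1:**
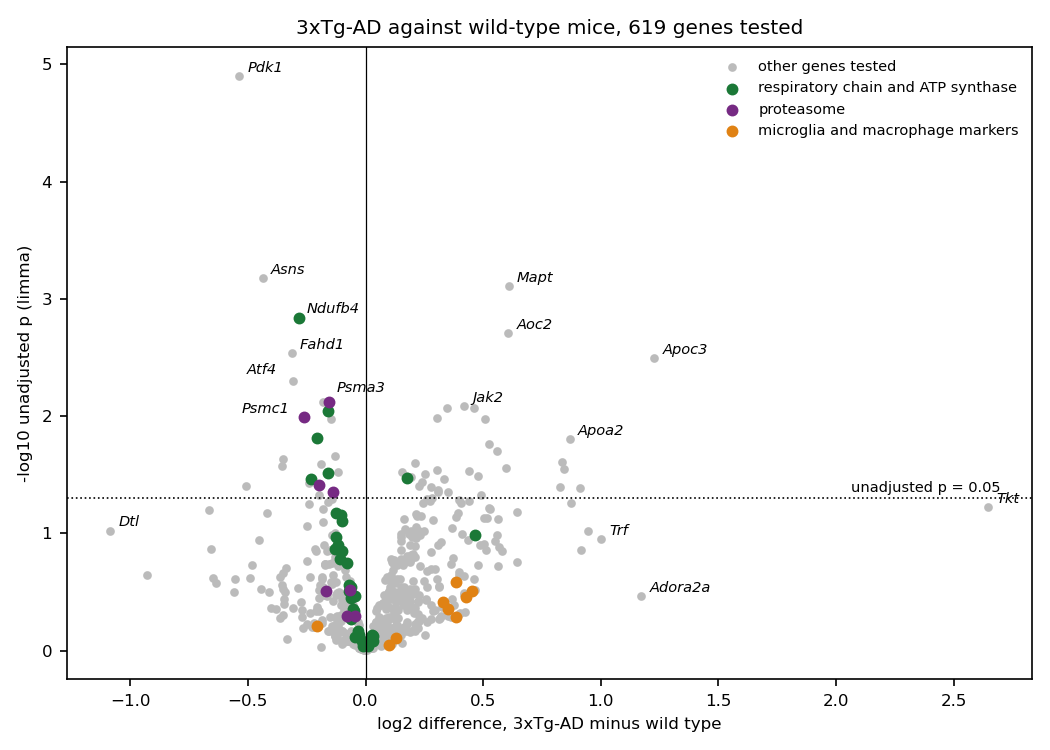
The log2 difference, 3xTg-AD minus wild type (x axis), is plotted against -log10 of the unadjusted p from limma (y axis) for the 619 tested genes, with 1 point per gene and members of 3 gene lists coloured. Pdk1, at -0.54, lies highest, most respiratory chain and all proteasome points lie left of 0, and the dotted line marks an unadjusted p of 0.05.

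Pdk1 encodes pyruvate dehydrogenase kinase 1, which phosphorylates and switches off the pyruvate dehydrogenase complex. Its level was 8.36, 8.07, 8.28, 8.15 and 7.76 in the 3xTg-AD mice, against 8.77, 8.58, 8.57 and 8.73 in the wild-type mice. The highest 3xTg-AD mouse stayed below the lowest wild-type mouse. Pdk1 averaged 8.12 ± 0.23 in 3xTg-AD mice (n = 5, SD) against 8.66 ± 0.10 in wild type (n = 4, SD), a difference of -0.54 (SE 0.0949, limma adjusted p = 0.00772), which puts it at 0.688 of its level in wild type. It differed by -0.45 without 3xTg-AD replicate 5 (adjusted p = 0.00699). Leaving out wild-type replicate 1 or 4 took the adjusted p to 0.0665 or 0.0526, a fit to the 9 mice alone to 0.494, and centring each mouse on its median gene to 0.289, all with Pdk1 lower in 3xTg-AD mice. RNA from whole hippocampus cannot tell fewer cells of a type from less RNA per cell, here or for any gene below.

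The RefSeq promoter tables (GRCm38.p6, 250 bases before to 50 after the start) held 2 entries for Pdk1, which has a known hypoxia-induced promoter in mammals. The motifs searched, on both strands, were GCGTG and ACGTG, the core letters bound by hypoxia-inducible factors. The entry at chr2:71872974-71873273 on the plus strand held 2 matches of GCGTG, in capitals, the first bases lying 78 and 2 bases before the start, and the second entry held none. At least 1 of these motifs stood in 43.8% of 32851 mouse promoters of this length, so that the match is common. It is printed because Pdk1 is the gene that passed.
Pdk1 promoter: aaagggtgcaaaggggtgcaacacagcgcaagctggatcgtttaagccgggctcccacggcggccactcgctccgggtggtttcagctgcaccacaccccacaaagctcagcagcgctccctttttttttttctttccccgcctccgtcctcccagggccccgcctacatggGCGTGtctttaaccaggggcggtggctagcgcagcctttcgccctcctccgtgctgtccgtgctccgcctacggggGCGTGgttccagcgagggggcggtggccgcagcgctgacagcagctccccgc

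The other pyruvate dehydrogenase genes lay on both sides of 0. Of 8 tested members, 3 lay above 0 and 5 below, with a median of -0.09, where of all tested genes 58.2% lay above 0 and 41.8% below with a median of 0.04, and Pdk1 was the 1 member with an unadjusted p under 0.05. Pdk4, the kinase isoform that responds to fasting and fat, had 7.04, 7.21, 7.11, 6.95 and 8.15 in 3xTg-AD mice and 6.63, 6.92, 7.22 and 6.78 in wild-type mice (0.40, adjusted p = 0.518). Its highest value was that of 3xTg-AD replicate 5, and the other values overlapped. Pdha1, the catalytic subunit that the kinases phosphorylate, differed by -0.16 (adjusted p = 0.518), and 3xTg-AD replicate 5, at 10.62, lay below the other 8 mice, at 10.99 to 11.22. Pdk3 differed by -0.18, Pdk2 by 0.06 and the phosphatase gene Pdp1, which undoes the kinases' mark, by 0.08. With 3xTg-AD replicate 5 left out, Pdk4 differed by 0.19, Pdha1 by -0.08, Pdk3 by -0.24 (adjusted p = 0.621), Pdk2 by 0.10 and Pdp1 by -0.095. In that fit 2 of the 8 members lay above 0 and 6 below, where 333 of 619 tested genes lay below 0. Pdk1 and Pdk3 were lower at an unadjusted p under 0.05 in limma (25% of the list, against 3.07% of the tested genes). The carrier genes that bring pyruvate into mitochondria, Mpc1 and Mpc2, differed by -0.02 and -0.18 (-0.0975 and -0.08 without 3xTg-AD replicate 5).

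**Figure D2:**
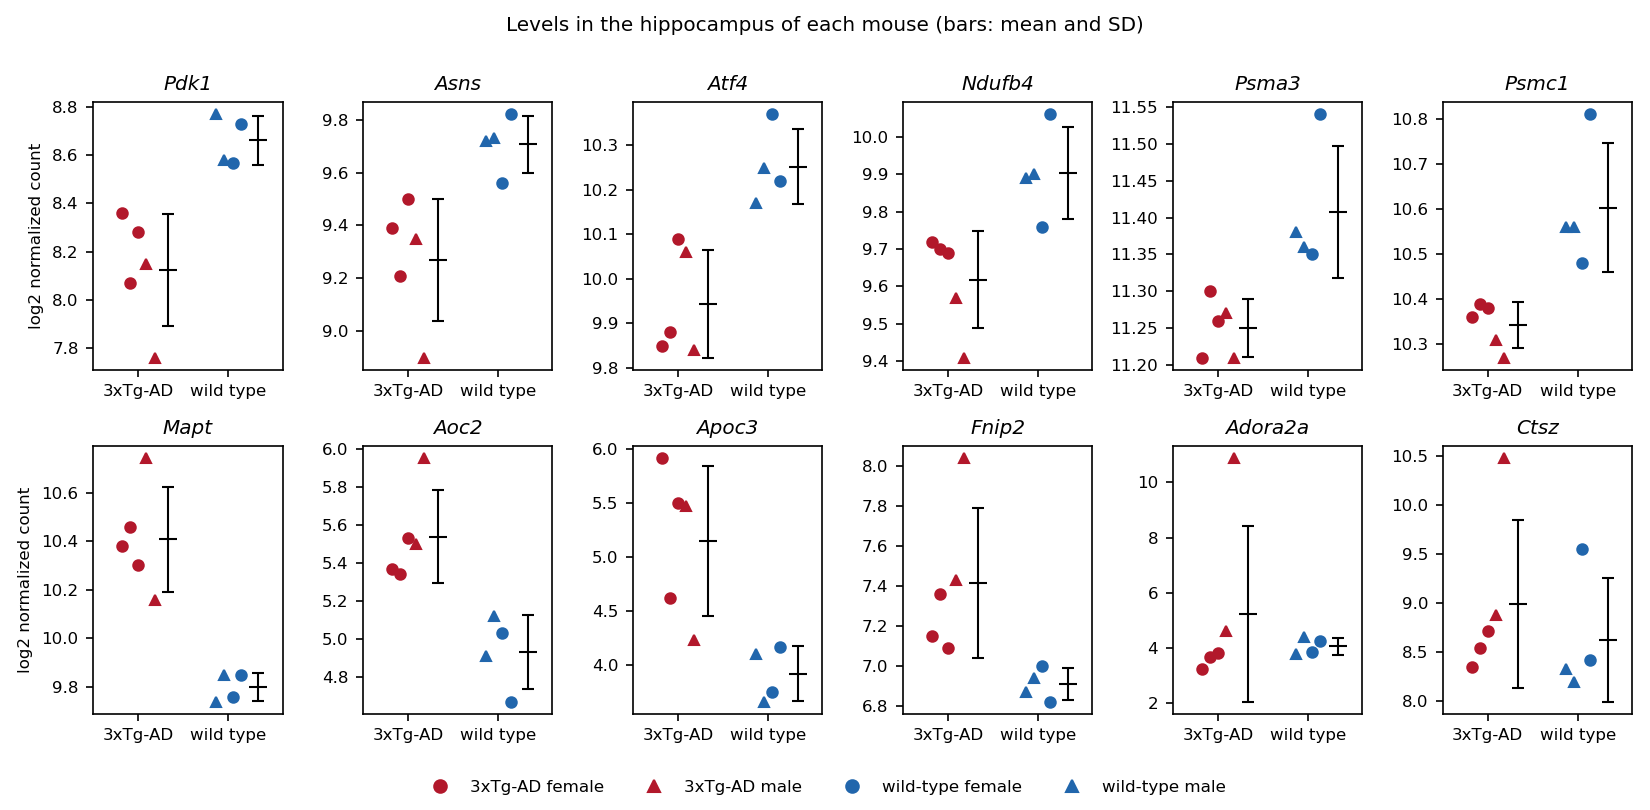
Log2 normalized counts (y axes, each with its own range) of 12 genes in each 3xTg-AD (red) and wild-type (blue) mouse, circles for females and triangles for males, with the group mean and SD beside the points. The genes were picked for display with their values known. The groups do not overlap in 10 of the 12 panels, against 18 of all 619 tested genes. In Adora2a and Ctsz 1 male 3xTg-AD mouse, replicate 5, lies far above the rest, at 10.87 and 10.47.

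Asns and Atf4, an enzyme and a transcription factor that answer amino acid shortage, were lower in every 3xTg-AD mouse than in any wild-type mouse, though neither passed the test. ATF4 protein is made when cells lack amino acids or misfold proteins, and it switches on Asns, which makes asparagine. Asns was at 9.39, 9.21, 9.5, 9.35 and 8.90 in 3xTg-AD mice and at 9.72, 9.73, 9.56 and 9.82 in wild-type mice (-0.44, SE 0.110, adjusted p = 0.159). Atf4 was at 9.85, 9.88, 10.09, 10.06 and 9.84 in 3xTg-AD mice and at 10.17, 10.25, 10.37 and 10.22 in wild-type mice (-0.31, SE 0.0983, adjusted p = 0.362). The gap between the groups was 0.06 for Asns and 0.08 for Atf4. Of the alternatives run, Asns passed only under array weights, a fit that gives mice far from the rest less weight (adjusted p = 0.00496). The list as a whole was divided: of 12 tested, Asns and Atf4 among them, 6 lay above 0 and 6 below. Its median was -0.03 (0.04 over the tested genes). Without 3xTg-AD replicate 5, the list had 4 above 0 and 8 below (median -0.11), where 333 of 619 tested genes lay below 0. In that fit 2 members, Asns and Atf4, were lower at an unadjusted p under 0.05 in limma (16.7% of the list, against 3.07% of the tested genes). Shmt2, a mitochondrial serine enzyme, was at 6.59, 6.46, 6.37, 6.79 and 6.83 in 3xTg-AD mice and 6.30, 6.49, 6.47 and 5.94 in wild-type mice (0.31, adjusted p = 0.512). Psat1, of serine synthesis, differed by 0.39, and by 0.13 without 3xTg-AD replicate 5. Phgdh, which starts that pathway, differed by 0.07 (-0.13 without that mouse) and Pycr1, of proline synthesis, by -0.14 (-0.31). Slc3a2, part of an amino acid transporter, differed by -0.07.

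The Asns promoter was searched for TGATGNAAN, the composite element that ATF4 binds with a C/EBP partner, on both strands. The RefSeq entry at chr6:7693160-7693459 (GRCm38.p6, minus strand) held 1 match, TGATGAAAC, in capitals, with its first base 23 bases before the start. The motif stood in 3.95% of the 32851 promoters and in 3 of the 10 list members that have a promoter in the table (Asns, Pycr1 and Slc7a11). It is printed because Asns and Atf4 lay on the same side in these mice, and a match is a description and not a measured binding site.
Asns promoter: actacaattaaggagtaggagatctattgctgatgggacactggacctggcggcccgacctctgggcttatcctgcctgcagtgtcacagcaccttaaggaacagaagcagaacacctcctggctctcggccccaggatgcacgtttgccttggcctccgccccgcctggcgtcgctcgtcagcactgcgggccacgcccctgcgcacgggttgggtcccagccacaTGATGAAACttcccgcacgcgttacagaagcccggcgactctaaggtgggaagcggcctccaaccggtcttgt

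Respiratory chain genes lay below wild type in most cases, by small amounts. The list was taken mainly by gene names and holds some genes, such as Cox14, that are not subunits. Of 34 tested genes, 27 differed by less than 0 and 7 by more. The median was -0.06 against 0.04 over all tested genes, of which 41.8% lay below 0. No member passed, and 5 were lower and 1 higher at an unadjusted p under 0.05, against 3.72% and 5.49% of all tested genes. In 3 members every 3xTg-AD mouse lay below every wild-type mouse, against 1.78% of all tested genes. Of the 17 genes with Nduf names, mostly of complex I, which takes electrons from NADH, 15 lay below 0 (median -0.06). All 3 genes of complex III lay below 0 (median -0.11), as did 6 of 10 with Cox names, mostly of cytochrome oxidase (median -0.05), and both of ATP synthase. Without 3xTg-AD replicate 5 the 34 genes had a median of -0.07, with 27 below 0, against a median of -0.02 over the tested genes and 333 of 619 below 0. By mouse, the list's median log2 deviation from the wild-type mean was -0.12, -0.06, 0.03, -0.12 and -0.05 in 3xTg-AD mice 1 to 5. It was -0.04, 0.004, -0.005 and 0.05 in wild-type mice 1 to 4, so that 3xTg-AD replicate 3 lay within their range. Centring each mouse on its median gene moved the list to -0.18 and the tested genes to -0.08.

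Ndufb4, an accessory subunit of complex I, had the smallest p of the list. It was at 9.72, 9.70, 9.69, 9.57 and 9.41 in 3xTg-AD mice, against 9.89, 9.90, 9.76 and 10.06 in wild-type mice (-0.28, SE 0.0776, adjusted p = 0.223). Ndufa12, another complex I subunit, was at 11.56, 11.69, 11.69, 11.64 and 11.31 in 3xTg-AD mice and 11.76, 11.75, 11.83 and 11.79 in wild-type mice (-0.20, adjusted p = 0.484). In both, every 3xTg-AD mouse lay below every wild-type mouse. Atp5k, a subunit of ATP synthase, was at 11.84, 11.84, 11.84, 11.77 and 11.88 in 3xTg-AD mice and 11.96, 11.93, 11.95 and 12.13 in wild-type mice (-0.16, adjusted p = 0.510). Cox5b, of cytochrome oxidase, differed by -0.16 (adjusted p = 0.362), with 3xTg-AD replicate 3 and wild-type replicate 3 both at 12.82. Ndufa13 differed by -0.23. Cox14, an assembly factor of cytochrome oxidase, lay higher by 0.18 (adjusted p = 0.510), and Ndufa11, the complex I subunit with the largest difference in the list, by 0.46 (adjusted p = 0.608).

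In the TCA cycle and glycolysis, single enzymes lay lower and none passed. Fh1, the fumarase gene, was at 10.45, 10.43, 10.48, 10.40 and 10.34 in 3xTg-AD mice, against 10.60, 10.51, 10.49 and 10.60 in wild-type mice (-0.13, adjusted p = 0.510), with no overlap but a gap of 0.01. It was the 1 of 12 tested TCA cycle genes with an unadjusted p under 0.05 (5 above 0, 7 below, median -0.02). Among 24 glycolysis and lactate genes 9 lay above 0 and 15 below (median -0.05), with 3 lower and 1 higher at an unadjusted p under 0.05. At that p 3.72% of all tested genes were lower and 5.49% higher. Ldha, which makes lactate from pyruvate, was at 11.44, 11.25, 11.23, 11.33 and 10.72 in 3xTg-AD mice and 11.51, 11.56, 11.41 and 11.70 in wild-type mice (-0.35, adjusted p = 0.510). A female 3xTg-AD mouse, at 11.44, lay above the lowest wild-type mouse. Eno1, the enolase of most tissues, differed by -0.19 (adjusted p = 0.510). Slc2a1, the glucose transporter of the blood-brain barrier and astrocytes, lay higher, at 8.26, 7.92, 8.15, 7.83 and 8.61 in 3xTg-AD mice against 7.70, 7.61, 7.87 and 7.67 in wild-type mice (0.44, adjusted p = 0.510).

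Pdk1, Ldha, Eno1 and Slc2a1 are all known targets of hypoxia-inducible factor, and in this list of 11 genes 4 lay above 0 and 7 below (median -0.10, and -0.05 without 3xTg-AD replicate 5, with the same counts). Besides Pdk1, no member passed. Hif1a, the factor's regulated subunit, differed by -0.02 (adjusted p = 0.952), with a 95% interval reaching 0.14 to each side. Vegfa, the vascular growth factor gene and a target of the factor, differed by -0.16.

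Proteasome genes lay below wild type throughout the list, by small amounts. All 8 tested members had a negative difference, between -0.26 and -0.04 (median -0.15, against 0.04 over the tested genes, of which 41.8% lay below 0). At an unadjusted p under 0.05, 4 were lower, against 3.72% of all tested genes, and none passed the threshold. All 8 were also negative without 3xTg-AD replicate 5 (median -0.14), and 2 had an unadjusted p under 0.05. Over all tested genes 333 of 619 then lay below 0, and 19 were lower at that p. Psma3, of the catalytic core's outer ring, was at 11.21, 11.30, 11.26, 11.27 and 11.21 in 3xTg-AD mice, against 11.38, 11.36, 11.35 and 11.54 in wild-type mice (-0.16, SE 0.0534, adjusted p = 0.362). Psmc1, an ATPase of the cap that unfolds proteins, was at 10.36, 10.39, 10.38, 10.31 and 10.27 in 3xTg-AD mice, against 10.56, 10.56, 10.48 and 10.81 in wild-type mice (-0.26, SE 0.0922, adjusted p = 0.362). In these 2 genes, both on chromosome 12, every 3xTg-AD mouse lay below every wild-type mouse, which held for 1.78% of all tested genes. Wild-type replicate 4 was the highest mouse in both. Without that mouse the list's median was -0.08. Psmb1 differed by -0.20 and Psmd13 by -0.14, and the inducible subunits Psmb10 and Psme2 by -0.17 and -0.08 (Psme2 by -0.14 without 3xTg-AD replicate 5).

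Brcc3 and Cops6, both of protein turnover, also had groups that did not overlap. Brcc3, a deubiquitinating enzyme, was at 8.88, 8.92, 8.92, 8.96 and 8.92 in 3xTg-AD mice and 9.05, 9.11, 9.0 and 9.10 in wild-type mice (-0.14, adjusted p = 0.362). Cops6, of the COP9 signalosome, was at 10.71, 10.66, 10.73, 10.74 and 10.62 in 3xTg-AD mice and 10.79, 10.78, 10.76 and 10.91 in wild-type mice (-0.12, adjusted p = 0.510). The differences are small, and so is the spread within each group. Sqstm1, the autophagy receptor p62, was at 11.75, 11.61, 11.77, 11.68 and 11.66 in 3xTg-AD mice, against 11.86, 11.86, 11.76 and 12.02 in wild-type mice (-0.18, adjusted p = 0.362), and overlapped by 0.01. The 8 autophagy genes as a list had 6 above 0 and 2 below (median 0.03). Pik3r4, of the lipid kinase that starts autophagosomes, lay higher by 0.17 (adjusted p = 0.510, and 0.115 without 3xTg-AD replicate 5).

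Mapt, the tau gene, was higher in every 3xTg-AD mouse than in any wild-type mouse. It was at 10.38, 10.46, 10.30, 10.74 and 10.16 in 3xTg-AD mice and at 9.74, 9.85, 9.76 and 9.85 in wild-type mice. The gap between the groups, 0.31, was wider than the range of the wild-type mice, 0.11. The difference was 0.61 (SE 0.155, adjusted p = 0.159), a level 1.52 times that of wild type, and of the alternatives run it passed only under array weights (adjusted p = 0.00119). It was 0.57 in females and 0.66 in males. The transgene is human tau, and whether the panel's probe binds it as well as mouse tau was not tested. App is not analysed here.

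The apolipoprotein genes Apoc3 and Apoa2, best known from liver lipoproteins, had low values in hippocampus and lay higher in 3xTg-AD mice. Apoc3 was at 5.91, 4.62, 5.5, 5.47 and 4.23 in 3xTg-AD mice, against 4.10, 3.66, 3.75 and 4.17 in wild-type mice (1.23, SE 0.368, adjusted p = 0.281). Apoa2 was at 6.24, 4.75, 5.56, 5.30 and 4.14 in 3xTg-AD mice and 4.54, 3.98, 4.47 and 4.33 in wild-type mice (0.87, adjusted p = 0.484). In both genes replicate 5 was the lowest 3xTg-AD mouse and replicate 1 the highest. Apoc3 passed only under array weights (adjusted p = 0.0188). The filter for testing lies at 4.32 on the log2 scale. For Apoc3 every wild-type mouse and 3xTg-AD replicate 5 lay below it, and the other 3xTg-AD mice lay above it. The size of the Apoc3 difference thus rests on wild-type values below the filter, where the share of probe background was not tested. Of 7 tested lipoprotein and cholesterol genes 6 lay above 0 (median 0.21, and 0.06 without 3xTg-AD replicate 5). Apoe, which carries cholesterol between brain cells, was at 12.85, 12.74, 12.79, 12.93 and 13.99 in 3xTg-AD mice and 12.74, 12.74, 13.15 and 12.77 in wild-type mice, so that 1 mouse in each group stood above the rest (0.21, adjusted p = 0.83).

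Fatty acid genes lay higher in part. Of 14 tested, 10 lay above 0 (median 0.16, and 0.06 without 3xTg-AD replicate 5), and none passed. Echs1, a hydratase of fatty acid oxidation, was at 8.73, 8.73, 8.61, 8.63 and 9.06 in 3xTg-AD mice and 8.55, 8.56, 8.60 and 8.46 in wild-type mice (0.21, adjusted p = 0.510), with no overlap. Scd1, the desaturase that makes monounsaturated fat, was at 9.88 to 10.03 in 3xTg-AD replicates 1 to 4 and at 11.31 in replicate 5, against 9.42 to 9.93 in wild-type mice (0.60, adjusted p = 0.510). Fasn, the fatty acid synthase, differed by 0.24 (adjusted p = 0.553). In Scd1 and Fasn the highest mouse was 3xTg-AD replicate 5, without which they differed by 0.33 and 0.15, and Echs1 by 0.13.

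Aoc2, Fnip2 and Insr also had every 3xTg-AD mouse above every wild-type mouse. Aoc2, a copper amine oxidase best known from retina, was at 5.37, 5.34, 5.53, 5.5 and 5.95 in 3xTg-AD mice, against 4.91, 5.12, 5.03 and 4.67 in wild-type mice (0.61, SE 0.171, adjusted p = 0.243). Fnip2, a partner of folliculin in AMPK and mTORC1 signalling, was at 7.15, 7.36, 7.09, 7.43 and 8.04 in 3xTg-AD mice and 6.87, 6.94, 7.0 and 6.82 in wild-type mice (0.51, adjusted p = 0.362). Insr, the insulin receptor, was at 6.92, 6.86, 6.87, 7.0 and 7.23 in 3xTg-AD mice and 6.74, 6.74, 6.66 and 6.75 in wild-type mice (0.25, adjusted p = 0.510). Replicate 5 was the highest in each of the 3. Without it Aoc2 differed by 0.50, Fnip2 by 0.35 and Insr by 0.19 (limma adjusted p = 0.479, 0.885 and 0.947). Srm, the spermidine synthase gene, did not overlap either, by 0.01 (0.14, adjusted p = 0.665).

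In the list of PI3K-AKT, MAPK and mTOR signalling, 24 of 32 tested genes lay above 0, with a median of 0.08. Over all tested genes 58.2% lay above 0, with a median of 0.04. Insr and Pik3r1, the regulatory subunit of the lipid kinase downstream of it (0.28, adjusted p = 0.510), were the list's 2 genes with an unadjusted p under 0.05. Both were higher, as were 5.49% of all tested genes at that p. Akt2 differed by 0.39 (adjusted p = 0.549) and Mapk8, the kinase JNK1, by -0.21. Without 3xTg-AD replicate 5 the list had 22 above 0 and 9 below (median 0.04), where 282 of 619 tested genes lay above 0. In that fit Pik3r1 was at 0.16, Akt2 at 0.22 and Mapk8 at -0.12, and no member had an unadjusted p under 0.05. Under centring on the median gene the list's median was -0.04 and that of the tested genes -0.08.

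The differences of the immune gene lists moved with 1 mouse, 3xTg-AD replicate 5, and no member passed. The 9 tested microglia and macrophage markers had a median difference of 0.35, with 8 above 0, and -0.03 with 4 above 0 without 3xTg-AD replicate 5. Their summed normalized count was 3521, 3688, 3930, 5393 and 13271 in 3xTg-AD mice 1 to 5, against 3673, 3349, 5601 and 3570 in wild-type mice 1 to 4. Of the 5 surface genes restricted to microglia on the marker list, 0 were measured, so the cell type rests on shared markers. Ctss, a cathepsin of microglia, was at 10.33, 10.36, 10.46, 10.97 and 12.38 in 3xTg-AD mice and 10.38, 10.07, 11.10 and 10.34 in wild-type mice (0.43, adjusted p = 0.785). For this gene 3xTg-AD replicates 1 to 4 lay within the wild-type range, and replicate 5 lay above it.

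The genes of the disease-associated microglia state had 7 of 9 tested members above 0 (median 0.13) and 0 of 9 above 0 without 3xTg-AD replicate 5 (median -0.09). Ctsz, a cathepsin of that state, was at 8.34, 8.54, 8.71, 8.87 and 10.47 in 3xTg-AD mice, against 8.32, 8.19, 9.55 and 8.41 in wild-type mice (0.37, adjusted p = 0.785). Ctsd, another cathepsin, was at 11.43, 11.51 and 11.78 in the female 3xTg-AD mice and reached 13.26 in male replicate 5, against 11.47, 11.35, 12.60 and 11.65 in wild-type mice (0.23, adjusted p = 0.882). In both genes 1 mouse of each group, 3xTg-AD replicate 5 and wild-type replicate 3, stood above the others. Cytokine and NF-kB genes went the same way, with a median of 0.22 over 12 genes and -0.09 without that 3xTg-AD mouse, when 8 lay below 0. So did 13 lysosome genes (0.05, and -0.05 with 10 below 0) and 7 interferon and JAK-STAT genes (0.17, and -0.03 with 4 below 0), where over all tested genes 333 of 619 then lay below 0. Jak2, a cytokine receptor kinase, had the smallest p among them, at 8.61, 8.46, 8.58, 8.44 and 9.37 in 3xTg-AD mice and 8.26, 8.12, 8.23 and 8.48 in wild-type mice (0.42, SE 0.144, adjusted p = 0.362). Antigen presentation genes had a median of -0.08, with 5 of 12 above 0, and of -0.19 with 3 of 12 above 0 without 3xTg-AD replicate 5. H2-Aa, of MHC class II, was at 6.73, 5.57, 6.10, 4.77 and 6.63 in 3xTg-AD mice and 5.74, 5.83, 8.75 and 7.23 in wild-type mice (-0.93, adjusted p = 0.738), so that the 2 highest values were those of the wild-type females.

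**Figure D3:**
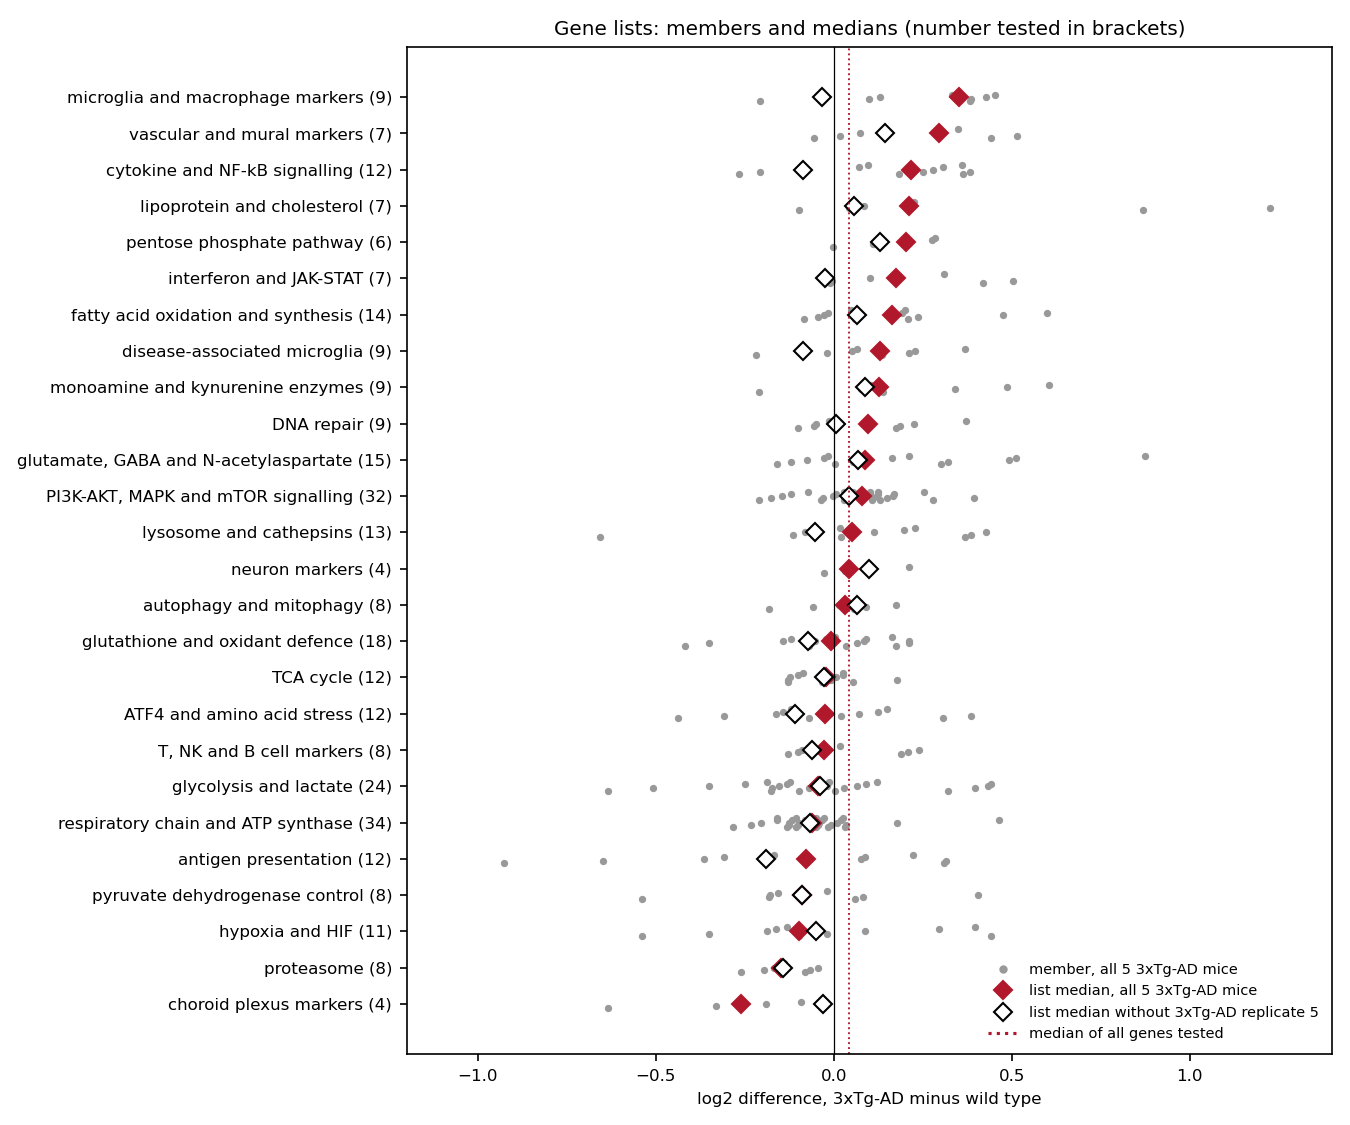
Log2 differences, 3xTg-AD minus wild type (x axis), of the members (grey) of each gene list with 4 or more tested genes, with the list's median over all 5 3xTg-AD mice (red) and without 3xTg-AD replicate 5 (open). The open and red diamonds lie apart for microglia markers (-0.03 and 0.35) and together for proteasome (-0.14 and -0.15) and respiratory chain (-0.07 and -0.06). Tkt, at 2.65 in the pentose phosphate row, lies outside the plotted range.

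Markers of the other cells of the tissue were few on the panel. The highest mouse was 3xTg-AD replicate 5 in both oligodendrocyte markers and the astrocyte marker, in 3 of 7 vascular and 3 of 8 lymphocyte markers, and in 1 of 4 neuron and 0 of 4 choroid plexus markers. The 2 oligodendrocyte markers measured, Aspa and Folh1, differed by 0.87 and 0.49 (adjusted p = 0.518 for each), and their summed count was 377, 467, 484, 522 and 1747 in 3xTg-AD mice against 281, 330, 588 and 254 in wild-type mice. The median of the 2 was 0.37 without 3xTg-AD replicate 5. The 7 vascular and mural markers had 6 above 0 (median 0.30, and 0.15 without that mouse), with a sum of 647 to 998 in 3xTg-AD mice and 565 to 722 in wild-type mice. Col4a1, a basement membrane collagen, was at 6.18, 6.13, 6.10, 6.25 and 6.0 in 3xTg-AD mice and 5.74, 5.36, 6.25 and 5.78 in wild-type mice (0.35, adjusted p = 0.512). Wild-type replicate 3 was the 1 wild-type mouse inside the 3xTg-AD range, and the gene passed only under array weights (adjusted p = 0.0274). The 4 neuron markers had a median of 0.04, and Grin1, an NMDA receptor subunit, differed by 0.03 with an interval reaching 0.23 to each side. The astrocyte list had Glul, glutamine synthetase, as its 1 measured member (0.16, adjusted p = 0.553). The 4 choroid plexus markers summed to 139 to 2785 in 3xTg-AD mice and 89 to 6954 in wild-type mice, with 3xTg-AD replicate 3 and wild-type replicate 3 at the top. The 8 tested genes of T, NK and B cells had a median of -0.03, with 4 above 0 and 4 below.

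**Figure D4:**
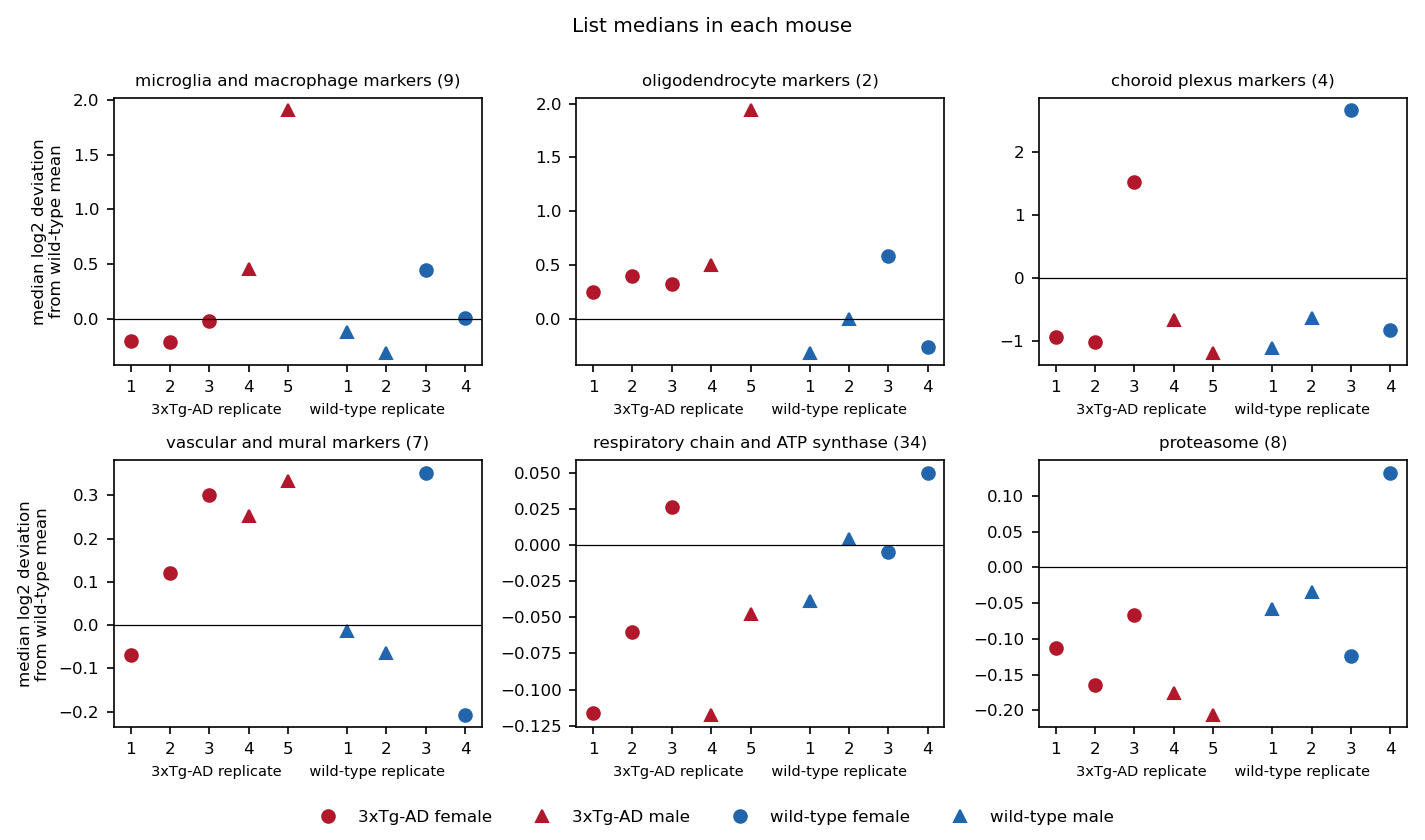
The median over a list's tested genes of the log2 deviation from the wild-type mean (y axes, each with its own range) in each 3xTg-AD (red) and wild-type (blue) mouse, by replicate number, for 6 lists. For microglia and oligodendrocyte markers 3xTg-AD replicate 5 lies at 1.91 and 1.94, for choroid plexus markers 3xTg-AD replicate 3 lies at 1.52 and wild-type replicate 3 at 2.66, and for proteasome all 5 3xTg-AD mice and 3 of the wild-type mice lie below 0.

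Neurotransmitter, oxidant defence, pentose phosphate and DNA repair genes did not pass in any member. Among 15 genes of glutamate, GABA and N-acetylaspartate metabolism 10 lay above 0 (median 0.09), and Folh1, which splits a neuropeptide of N-acetylaspartate and glutamate, was the 1 member with an unadjusted p under 0.05. Monoamine and kynurenine enzymes had 8 of 9 above 0 (median 0.13), led by Aoc2, where 58.2% of all tested genes lay above 0. That list had 5 above 0 and 4 below without 3xTg-AD replicate 5 (median 0.09). Ddc, which makes dopamine and serotonin, differed by 0.49 (adjusted p = 0.640), with 3xTg-AD replicate 5 at 5.73 and the other 8 mice at 3.98 to 4.91. Glutathione and oxidant defence genes had 9 above 0 and 9 below (median -0.01), and 4 above and 14 below without 3xTg-AD replicate 5 (median -0.07). Mgst3, a microsomal glutathione transferase, differed by -0.42 (adjusted p = 0.549). DNA repair genes had 5 of 9 above 0, with a median of 0.10, and of 0.005 without 3xTg-AD replicate 5. Among them Fancd2 differed by 0.37 (0.34 without that mouse), Trp53 by 0.19 (0.055) and Brca2 by 0.22 (0.0825). Of 6 pentose phosphate genes 5 lay above 0 (median 0.20). The difference of Tkt, the transketolase gene, was 2.65, but wild-type replicate 1 is listed at a log2 value of 0.0 and the other 8 mice lie at 10.38 to 10.71. Without that mouse Tkt differed by 0.03.

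The female and male mice were compared for the genotype difference itself, with 3 against 2 females and 2 against 2 males. In females the median difference over the tested genes was -0.05 and in males 0.19, and 290 of 619 genes had the same sign in both. The difference between the sexes passed in 3 of 619 genes (0.485%): Tnf (-3.64, SE 0.732), Bcl2a1a (-2.93, SE 0.604) and Apoc2 (-2.65, SE 0.556), each with a limma adjusted p of 0.0419. Of 88 genes with an unadjusted p under 0.05, 81 (13.1%) had a lower difference in females than in males and 7 (1.13%) a higher one. All 81 lay below 0 in females and above 0 in males. Without 3xTg-AD replicate 5 the difference between the sexes was -3.35 for Tnf, -2.04 for Bcl2a1a and -2.32 for Apoc2 (adjusted p = 0.334, 0.334 and 0.394). In that fit no gene passed in limma and 30 had an unadjusted p under 0.05, and without both that mouse and wild-type replicate 3 no gene passed and 20 did. Without 3xTg-AD replicate 4, which leaves replicate 5 as the 1 male 3xTg-AD mouse, 117 genes passed.

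Tnf, the inflammatory cytokine, was at 3.37, 3.57 and 3.74 in female 3xTg-AD mice against 4.99 and 4.78 in female wild-type mice, and at 4.56 and 5.14 in male 3xTg-AD mice against 3.10 and 1.98 in male wild-type mice. The groups of neither sex overlapped, in opposite directions. Bcl2a1a, a survival gene of blood cells and activated macrophages, was at 5.18, 5.09 and 5.39 in female 3xTg-AD mice against 6.4 and 5.73 in female wild-type mice, and at 6.27 and 8.05 in male 3xTg-AD mice against 5.14 and 5.02 in male wild-type mice. Apoc2, the activator of lipoprotein lipase, averaged 2.75 in female 3xTg-AD mice against 4.02 in female wild-type mice, and 4.34 in male 3xTg-AD mice against 2.95 in male wild-type mice. The filter of 20 counts is 4.3 on the log2 scale. Tnf lay below it in female 3xTg-AD and male wild-type mice, and the Apoc2 mean lay below it except in male 3xTg-AD mice. Bcl2a1a lay above it in every mouse. Tlr2 (-3.05, adjusted p = 0.0520) and Cd84 (-2.67, adjusted p = 0.0522), both receptors of myeloid cells, came next. The microglia and macrophage markers as a list had a median of -0.48 in females, with 1 of 9 above 0, and 1.45 in males, with 9 of 9 above 0. Pdk1 differed by -0.41 in females and by -0.72 in males, Mapt by 0.57 and 0.66, and Asns by -0.32 and -0.60, each on the same side in both sexes.

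**Figure D5:**
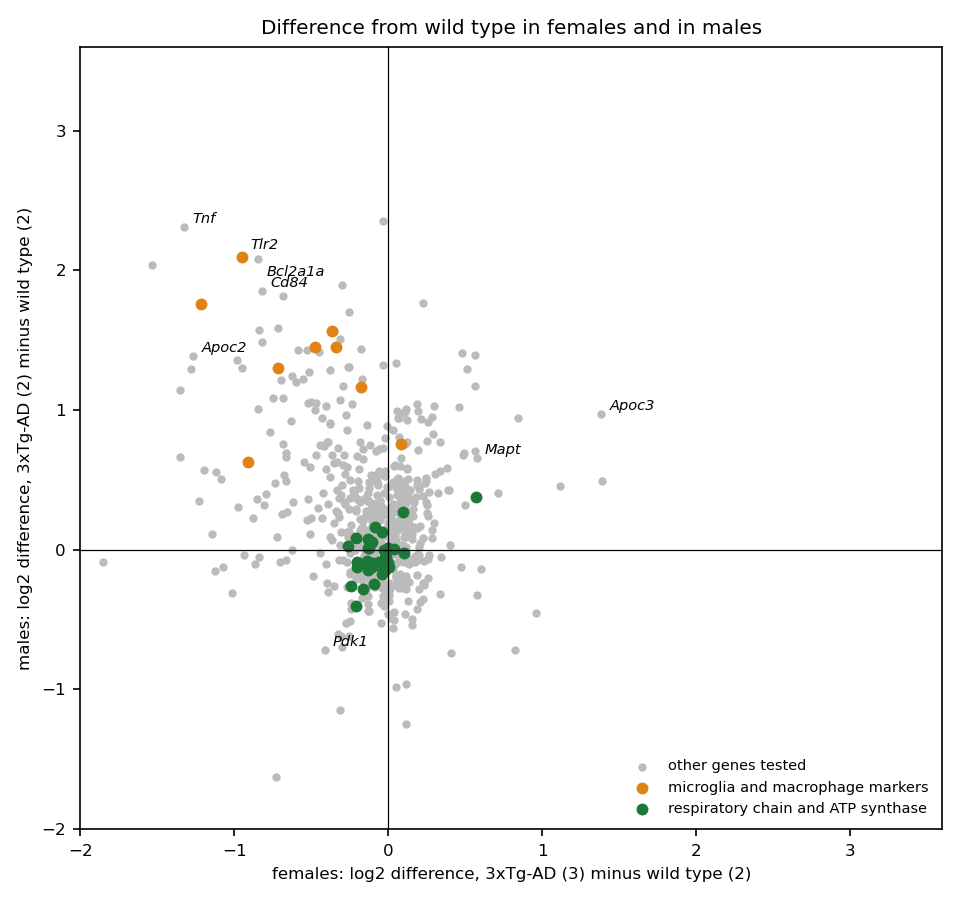
The log2 difference, 3xTg-AD minus wild type, in females (x axis, 3 against 2 mice) and in males (y axis, 2 against 2 mice) for the tested genes, with 1 point per gene; Adora2a and Tkt lie outside the plotted range. Tnf, Bcl2a1a, Apoc2, Tlr2 and Cd84 lie in the upper left, below 0 in females and above 0 in males, Pdk1 lies in the lower left and Mapt in the upper right.

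Genes on the chromosome of the transgenes were looked at together. Mouse chromosome 2, which holds the transgene array in this line, had 46 tested genes, and Pdk1 is 1 of them. There were 33 above 0 and 13 below (median 0.07), where 58.2% of all tested genes lay above 0 (median 0.04). Without 3xTg-AD replicate 5 the chromosome had 23 of its 46 genes above 0 (median 0.00), where 282 of 619 tested genes lay above 0. Gatm, of creatine synthesis, and Uck1, a uridine kinase, were its other genes with the smallest p (0.83 and 0.16, adjusted p = 0.510 for each), and 3xTg-AD replicate 5 was the highest mouse in both. Without it Gatm differed by 0.52. Whether these genes differ through their position was not tested.

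Below the filter, 129 genes had values too low to test, and in 8 of them the groups did not overlap, 5 above (3.88%) and 3 below (2.33%). Rgn, regucalcin, was at 3.95, 4.06, 3.83, 4.30 and 3.84 in 3xTg-AD mice, against 3.24, 2.66, 2.26 and 3.25 in wild-type mice. Akr1c6, an aldo-keto reductase, was at 3.59, 2.84, 3.15, 4.16 and 3.31 in 3xTg-AD mice and 2.78, 2.66, 1.94 and 2.08 in wild-type mice. Tpsab1, a mast cell tryptase, was at 2.78, 1.67, 2.64, 1.5 and 1.14 in 3xTg-AD mice and 2.95, 2.83, 2.94 and 3.25 in wild-type mice. The share of probe background in values this low was not tested.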

How the data were processed

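RNA from hippocampus (5 mg of tissue, 100 ng of RNA per the labels' protocols) was counted on the nCounter metabolic pathways panel. The authors deposited log2 values of normalized counts, made with the nCounter Advanced Analysis suite according to the series' design text, and the sources used here do not give their background correction or normalization genes. Of 768 rows, 20 had no value in any sample and 748 had values from -0.57 to 15.23. Of these, 747 symbols matched the RefSeq table and 1 did not. In each mouse at least 99.6% of low values lay at log2 of a whole number plus a constant (tolerance 0.0125 log2, counts up to 40), and that constant gave the inferred total counts. Intervals and floors from counts were not used, and the number of mice limits the precision.

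Genes with a normalized count of at least 20 in 4 of the 23 samples were tested, so that 619 entered and 129 did not. In R 4.3.3, limma 3.58.1 fitted all 23 samples of the 5 groups with a mean for each and 1 shared estimate of the spread (lmFit, then contrasts.fit and eBayes with trend). Tests were two-sided with Benjamini-Hochberg adjustment over the 619 genes and a threshold of 0.05. The comparison of sexes used 1 mean per group and sex. The 22 pathway lists and 8 lists of cell type markers are described by counts and medians. Members, lists and tests were chosen with earlier results of these data known.

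Named genes were those past the threshold, the 25 with the smallest p, the 3 with the smallest p of each list, those with groups that did not overlap and the largest differences, and the 5 with the smallest p between sexes. Some items that this rule covers are not reported here. Other named genes were chosen after their values were seen. Alternatives were other scalings (on the median gene, on Hprt and Rplp0, or quantile), other filters (none, or 50), sex as a covariate, only the 9 mice, replicate numbers as a block, other moderation, array weights, ordinary regression with Benjamini-Yekutieli adjustment, each sex alone, and each mouse left out. Replicate numbers did not pair the mice: same-numbered mice correlated at 0.10, 0.19, 0.19 and -0.02. The workflow was tested on simulated data. Promoters were read from RefSeq tables of GRCm38.p6. Tables and plots were made with pandas 2.3.3, matplotlib 3.10.9, NumPy 2.4.6 and SciPy 1.17.1 under Python 3.11.15.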

Additional observations from a re-analysis of the deposited data

Results flagged for a closer look

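Among the named genes, single mice stood apart from the rest of their group by Dixon's criterion at the 95% level, which chance alone meets in about 1 of 20 groups. Most of these were 3xTg-AD replicate 5. It was high for Jak2 (9.37), Serinc5 (9.98), Gatm (12.01), Pdk4 (8.15), Ctsz (10.47), Apoe (13.99), Rela (6.35), Srebf1 (9.0), Echs1 (9.06), Scd1 (11.31), Aspa (10.62), Ddc (5.73), Tkt (10.71), Taldo1 (10.95), Brca2 (6.05) and Gad1 (11.96). It was low for Pdha1 (10.62) and Zap70 (3.14). Over all 619 tested genes this mouse was set apart as high in 80 and low in 20.

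Wild-type replicate 3 was high for Ctsz (9.55), Apoe (13.15), Stat6 (6.8), Folr1 (8.83), Lepr (7.38) and Odc1 (10.02), and low for Insr (6.66). Over the tested genes it was set apart as high in 22. Wild-type replicate 4 was high for Psma3 (11.54) and low for Srebf1 (7.4). Wild-type replicate 1 was listed at 0.0 for Tkt, while the other wild-type mice lay at 10.38, 10.56 and 10.41.

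The difference between genotypes differed between females and males, by the test of the difference itself, for Tnf (-3.64), Bcl2a1a (-2.93) and Apoc2 (-2.65), with a lower difference in females. Without 3xTg-AD replicate 5 they were -3.35, -2.04 and -2.32 (adjusted p = 0.334, 0.334 and 0.394), so that the calls were lost while the difference stayed below 0 in each.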

How the results depend on the processing

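The fall of Pdk1 kept its direction under all alternatives run, between -0.72 in males alone and -0.41 in females alone (adjusted p = 0.0399 and 0.741), and the count of 1 passing gene went to 0 when mice were centred on the median gene, on Hprt and Rplp0 (adjusted p = 0.0585) or by quantiles (0.136), when only the 9 mice were fitted, and under ordinary regression with Benjamini-Yekutieli adjustment (0.0526), and to 10 under array weights (Pdk1, Asns, Fahd1, Ndufb4, Brcc3, Sqstm1 and Cox5b lower, Mapt, Apoc3 and Col4a1 higher). Leaving out each mouse gave 0 to 1, with 0 without wild-type replicate 1 or 4. Centring on the median gene moved the median of the tested genes by -0.12, and 218 genes then lay above 0 and 401 below, against 360 and 259 as reported; quantiles gave 282 and 336. Groups did not overlap in 3 genes above and 7 below on the median gene, 13 and 6 on Hprt and Rplp0, and 4 and 10 by quantiles, against 7 and 11. With the replicate numbers as a block Pdk1 differed by -0.52 (adjusted p = 0.0431), 1 gene passed, and 9 passed for the difference between sexes. The count of 3 for that difference was 0 on the median gene, on Hprt and Rplp0, with no filter, with a filter of 50, with only the 9 mice, under array weights and without 3xTg-AD replicate 5 and wild-type replicate 3 together, 1 by quantiles and 9 without a trend. Leaving out each mouse gave 0 to 117; the 1 gene without wild-type replicate 2 was Tkt, and without 3xTg-AD replicate 4 or wild-type replicate 4 it was 117 and 9. The difference in inferred total went from -22034.8 to 24725.5 as each mouse was left out. Signs turned, without a call, for Rb1cc1 (-0.0295), Pgd (-0.009), Nat8l (-0.066) and Grin1 (-0.0875) on the median gene and Grin1 (-0.0214) by quantiles. They turned under array weights for Neu1 (0.0088), Srebf1 (-0.072), Brca2 (-0.0068), Gad1 (-0.025), Folr1 (0.49) and Lepr (0.20). Without 3xTg-AD replicate 5 and wild-type replicate 3 they turned for Neu1 (0.0425), Brca2 (-0.0542), Gad1 (-0.0117), Folr1 (1.23) and Lepr (0.48). In females alone they turned for Pdha1 (0.0033), Cd14 (-0.37), Ctss (-0.34), Ctsz (-0.45), Apoe (-0.17), Ctsd (-0.55), Stat6 (-0.035), Tkt (-0.0683), Trp53 (-0.0733), Prf1 (-0.41), Tnf (-1.33), Bcl2a1a (-0.85), Tlr2 (-0.95) and Cd84 (-0.82), and in males alone for Rb1cc1 (-0.03), Tdo2 (-0.45), Nat8l (-0.20), Grin1 (-0.09), Lepr (0.21), Zap70 (-0.33) and Apoc2 (1.39). Leaving out 1 mouse turned the sign for Apoc2 (-0.42 to 0.21), Apoe (-0.0225 to 0.31), Bcl2a1a (-0.09 to 0.70), Cd84 (-0.0825 to 0.61), Ctsd (-0.0875 to 0.51), Ctsz (-0.0025 to 0.68), Folr1 (-0.9975 to 0.87), Grin1 (-0.0225 to 0.075), Lepr (-0.33 to 0.47), Nat8l (-0.06 to 0.12), Prf1 (-0.0825 to 0.35), Tlr2 (-0.13 to 0.72) and Tnf (-0.21 to 0.79). The cause of these changes was not tested.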
